A study of Mus musculus with 4 samples.

Results

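Conventional dendritic cells with little *Ccr7* RNA were examined in the mouse fracture callus. Cells were chosen by their own raw counts of unique molecular identifiers (UMIs, which count RNA molecules). Barcodes with 4000 to 50000 UMIs, 2000 to 7000 genes and at most 8% mitochondrial UMIs were kept first. Of these, a cell was taken as a dendritic cell when it carried at least 10 UMIs of *H2-Ab1*, at least 2 of *Flt3*, *Zbtb46* and *Cd209a* together, at most 1 of *C1qa* and at most 1 of *Ccr7*. This gave 587 of 25479 kept cells (2.30%, 95% exact binomial interval 2.12 to 2.50). The selection fixes the levels of these genes in the dendritic cells, so those levels are a description and not a finding. All intervals below cover counting error only.

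The cells came from 4 single-cell RNA-seq libraries of callus from male wild-type C57BL/6J mice whose right tibia was fractured at 3 months of age. In the RA libraries the mice received arthritogenic serum of K/BxN mice by intraperitoneal injection from the day of fracture on, which gives an inflammatory arthritis. Control mice received vehicle (phosphate-buffered saline). Callus was collected 4 or 7 days postfracture (dpf), scraped along the periosteal surface and digested with collagenase, which gave the libraries control_4d, RA_4d, control_7d and RA_7d. Each library is 1 pool, of 4 animals by the sample descriptions and of 3 by the study's methods. With 1 library per condition no difference between conditions could be tested, and library preparation, pool of animals and condition cannot be told apart.

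Conventional dendritic cells take up antigen in tissues, present peptides on MHC molecules and, once mature, gain the chemokine receptor *Ccr7* and leave for lymph nodes. The growth factor receptor *Flt3* sustains them, and the transcription factor *Zbtb46* separates them from macrophages. They are known in 2 main kinds. Type 1 cells depend on *Irf8* and *Batf3*, carry *Xcr1* and *Clec9a*, and are known for presenting antigen of dead cells to CD8 T cells. Type 2 cells depend on *Irf4*, carry *Sirpa* and often *Cd209a*, and mainly prime CD4 T cells. Inflamed tissues also hold monocyte-derived cells with MHC class II, which can resemble type 2 cells.

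The genes behind the selection lie apart in the mouse genome (GRCm38). *Flt3* lies at chr5:147330741-147400489 on the minus strand, *Zbtb46* at chr2:181387762-181459426 on the minus strand and *Cd209a* at chr8:3743397-3748984 on the minus strand. For the type 1 markers, *Xcr1* is at chr9:123852315-123862029 on the minus strand and *Clec9a* at chr6:129408862-129424763 on the plus strand.

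*Flt3* carried most of the selection. A *Flt3* UMI was found in 80.7% of the 587 cells, a *Cd209a* UMI in 50.8% and a *Zbtb46* UMI in 45.0%. In callus cells full of collagen RNA, which should lack all 3, the shares were 0.420%, 0.0774% and 24.5% at a median of 24677 UMIs per cell against 13726 in the dendritic cells. *Zbtb46* RNA alone was therefore not specific in this tissue. *H2-Ab1*, a chain of MHC class II, had a median of 109 UMIs per cell (10 to 301). At the edge of the selection, the 95 cells with exactly 2 marker UMIs held *Csf1r*, the receptor of macrophage growth factor, at 117 counts per 1000000 UMIs (CPM), against 247 CPM in the 119 cells with 1 marker UMI that were left out. The complement gene *C1qb* was at 32.6 and 64.9 CPM on the same sides of that edge. The *C1qa* limit kept 50 cells at 1 UMI and left out 2 at 2 UMIs, and the *Ccr7* limit kept 56 cells at 1 UMI and left out 21 at 2. *H2-Ab1* itself hardly cut at its limit, with 7 cells at 10 to 12 UMIs and 9 just below at 7 to 9.

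The label was checked against markers the selection did not name. The study's other antigen-presenting cells, with at least 10 *H2-Ab1* and at least 2 *C1qa* UMIs, numbered 2063 and are called C1qa-positive cells here. Macrophage genes *Adgre1*, *Fcgr1* and *Ms4a7* together reached 4 UMIs in 29 dendritic cells (4.94%) and in 1879 C1qa-positive cells (91.1%). A macrophage list of 17 genes besides *C1qa*, which the selection used, summed to 1237 CPM in control_4d, 1837 in RA_4d, 1746 in control_7d and 2185 in RA_7d in the dendritic cells, led by *Lyz2*, and to between 24514 and 43457 CPM in the C1qa-positive cells. Genes that go with *C1qa*, such as *C1qb* and *C1qc*, were held apart by the same selection. Plasmacytoid markers *Siglech* and *Ccr9* reached 2 UMIs in 21 dendritic cells (3.58%). *Ly6c2*, a monocyte marker, reached 2 UMIs in 6.78%, 8.44%, 9.35% and 7.78% of the dendritic cells of control_4d, RA_4d, control_7d and RA_7d and in 10.9%, 16.1%, 7.00% and 3.17% of the C1qa-positive cells, so the order of the 2 groups differed between 4 and 7 dpf. *Cd3e*, *Cd3d* and *Cd3g* of T cells did so in 3 cells. Most cells thus carried few macrophage, plasmacytoid or T cell markers, and a minority carried them.

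Dendritic cells took a smaller share of the callus at 7 than at 4 dpf. They were 236 of 5470 kept cells in control_4d (4.31%, 3.79 to 4.89), 154 of 4110 in RA_4d (3.75%, 3.19 to 4.37), 107 of 7676 in control_7d (1.39%, 1.14 to 1.68) and 90 of 8223 in RA_7d (1.09%, 0.881 to 1.34). The intervals at 4 and 7 dpf did not overlap in either condition, whereas those of RA and control overlapped at both times. The share at 7 dpf over that at 4 dpf was 0.323 (0.255 to 0.408) in controls and 0.292 (0.223 to 0.381) in RA. RA over control it was 0.868 (0.704 to 1.07) at 4 dpf and 0.785 (0.587 to 1.05) at 7 dpf.

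Part of that contrast moved with the rest of the tissue. Cells with a *Ptprc* UMI, the pan-leukocyte gene CD45, were 64.7% of control_4d, 64.4% of RA_4d, 41.4% of control_7d and 26.9% of RA_7d. As a share of these leukocytes, dendritic cells were 6.67%, 5.82%, 3.37% and 4.07%. The 7 dpf over 4 dpf ratio was then 0.505 (0.398 to 0.638) in controls and 0.699 (0.533 to 0.912) in RA, still below 1 in both. The RA over control ratio at 7 dpf became 1.21 (0.901 to 1.61), so its direction depended on the denominator. Cells that met every condition but had at least 2 *Ccr7* UMIs, and so fell outside the selection, were 1.59% of control_4d, 0.754% of RA_4d, 0.547% of control_7d and 0.572% of RA_7d.

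**Figure D1:**
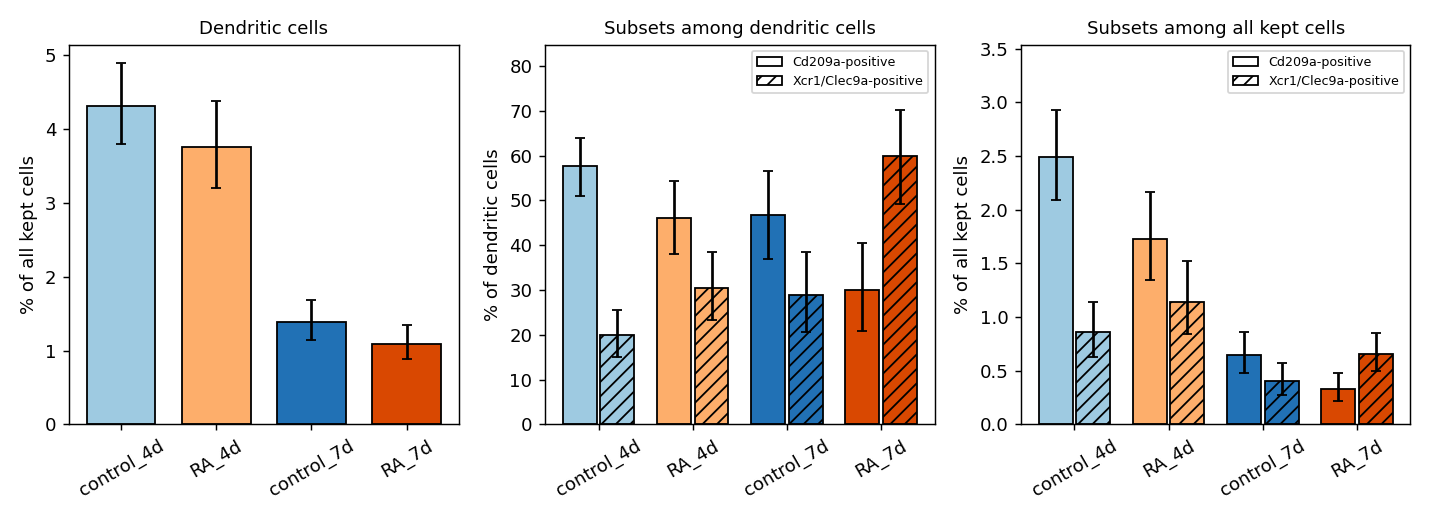
Left, dendritic cells as a percent of all kept cells in each library; middle, Cd209a-positive (plain) and Xcr1/Clec9a-positive (hatched) cells as a percent of the dendritic cells; right, the same as a percent of all kept cells; bars are 1 library each and error bars 95% exact binomial intervals. The dendritic share runs from 4.31% in control_4d to 1.09% in RA_7d, and RA_7d is the library in which hatched bars exceed plain ones, at 60.0% against 30.0%.

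Splitting the cells by type gave 284 with *Cd209a* and neither *Xcr1* nor *Clec9a* (48.4%), 179 with *Xcr1* or *Clec9a* and no *Cd209a* (30.5%), 14 with both (2.39%) and 110 with neither (18.7%). The Xcr1/Clec9a-positive cells were 47 of 236 in control_4d (19.9%), 47 of 154 in RA_4d (30.5%), 31 of 107 in control_7d (29.0%) and 54 of 90 in RA_7d (60.0%). The Cd209a-positive cells were 136 (57.6%), 71 (46.1%), 50 (46.7%) and 27 (30.0%) in the same order. RA_7d was thus the library in which the type 1 markers led. There were 0.346 (0.243 to 0.485) Xcr1/Clec9a-positive cells per Cd209a-positive cell in control_4d, 0.662 (0.448 to 0.970) in RA_4d, 0.620 (0.383 to 0.990) in control_7d and 2.00 (1.24 to 3.30) in RA_7d. The interval of RA_7d lay above those of the other 3 libraries, which overlapped each other.

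Counted against all kept cells, the subsets moved apart between RA and control. Cd209a-positive cells in RA were 0.695 (0.514 to 0.932) of the control share at 4 dpf and 0.504 (0.303 to 0.821) at 7 dpf. Xcr1/Clec9a-positive cells were at 1.33 (0.869 to 2.04) and 1.63 (1.03 to 2.62) of it. Both subsets had smaller shares at 7 than at 4 dpf, with Cd209a-positive cells at 0.262 (0.186 to 0.365) in controls and 0.190 (0.117 to 0.300) in RA, and Xcr1/Clec9a-positive cells at 0.470 (0.289 to 0.755) and 0.574 (0.381 to 0.868). Depth moved with these labels, since the median was 17213 UMIs in Xcr1/Clec9a-positive and 12252 in Cd209a-positive cells, and 14647 in the dendritic cells of RA_7d against 10691 in control_7d.

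The 2 subsets differed by many genes, which is the contrast their calls were made on and is described without a test. Across 8706 genes with at least 50 UMIs, 684 (7.86%) were at least 2-fold higher in Cd209a-positive cells pooled and higher in each library, and 438 (5.03%) were lower in the same way. All 14 genes of the type 1 list were lower in Cd209a-positive cells, and 8 of 13 genes of the type 2 list were higher. These counts include *Xcr1*, *Clec9a* and *Cd209a*, whose direction the subset calls fixed. The type 1 transcription factor *Irf8* was at 595 CPM in Xcr1/Clec9a-positive and 25.0 CPM in Cd209a-positive cells. *Cadm1*, an adhesion molecule of type 1 cells, was at 228 and 18.2 CPM, the DNA-sensing *Ifi205* at 690 and 17.1 CPM, and the small GTPase *Rab7b* at 329 and 24.2 CPM. In the other direction stood the lectins *Clec10a* (275 CPM in Cd209a-positive against 4.20 in Xcr1/Clec9a-positive cells), *Mgl2* (226 against 5.10), *Mrc1* (200 against 4.20) and *Clec4n* (108 against 4.20). These differences were found in each of the 4 libraries, for *Irf8* between 19.8 and 33.3 CPM on one side and between 534 and 681 CPM on the other.

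Detection per cell showed the same. *Irf8* had a UMI in 95.5% of Xcr1/Clec9a-positive and 21.5% of Cd209a-positive cells, and *Batf3*, its partner, in 78.8% and 20.1%. *Sirpa*, the inhibitory receptor that marks type 2 cells, had one in 10.1% and 81.3%, *Irf4* in 5.03% and 29.6%, and *Csf1r* in 8.38% and 61.6%. The Cd209a-positive cells were richer in macrophage genes (8 of 12 compared, among them *Csf1r*, *Adgre1* and *Mrc1*, with *Pf4* lower), in Fc and complement receptors (8 of 10) and in chemokine receptors (6 of 8, among them *Ccr1*, *Ccr2*, *Cxcr4* and *Cx3cr1*). The chemokine receptor *Cxcr3* was lower there, as was *Xcr1*, which entered the subset call. NF-kB genes and their feedback inhibitors were higher there for 7 of 14, and costimulatory genes for 4 of 11, with *Havcr2* lower. Xcr1/Clec9a-positive cells were higher for 9 of 14 cell cycle genes and for *Tap1*, *Tap2*, *Psmb8* and *Psmb9* of 14 MHC class I genes, which cut peptides and carry them to class I molecules. At least 2 UMIs of *Mki67* and *Top2a* were found in 33 of 179 of them (18.4%) and in 18 of 284 Cd209a-positive cells (6.34%). The 110 cells with neither marker had *Sirpa* at 228 CPM, *Csf1r* at 149 and *Irf8* at 139, between the 2 subsets for *Irf8*.

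**Figure D2:**
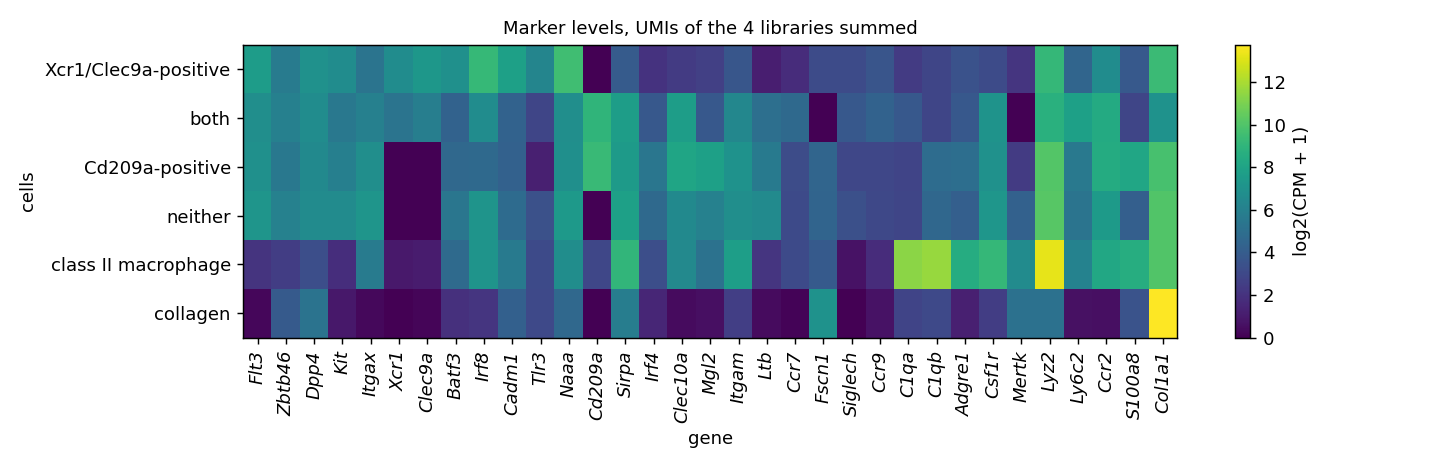
Marker genes (columns) in the 4 groups of dendritic cells, in C1qa-positive cells (class II macrophage) and in collagen-rich callus cells (rows), as log2(CPM + 1) of UMIs summed over the 4 libraries. *Flt3* is bright in all dendritic rows, *Irf8*, *Cadm1* and *Naaa* in the Xcr1/Clec9a-positive row, *Clec10a* and *Mgl2* in the Cd209a-positive row, and *C1qa*, *C1qb* and *Lyz2* in the macrophage row; *Xcr1*, *Clec9a*, *Cd209a*, *Flt3*, *Zbtb46*, *C1qa* and *Ccr7* were used in the selection.

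Against the C1qa-positive cells, dendritic cells differed by genes on both sides. Of 12892 genes, 389 (3.02%) were at least 2-fold higher and 677 (5.25%) at least 2-fold lower in all 4 libraries. *C1qa* defined the contrast, so nothing is read from these counts. *Ifitm1*, a membrane protein of the interferon-induced family at chr7:140967221-140969825, was at 2379 CPM in control_4d, 2129 in RA_4d, 2010 in control_7d and 300 in RA_7d, against 61.0, 41.4, 43.1 and 9.42 CPM in C1qa-positive cells. *Klrd1*, the CD94 lectin known from natural killer cells, was at 475, 270, 297 and 123 CPM against 8.20, 8.95, 5.27 and 1.24. The natural killer list, which does not hold *Klrd1*, summed to 6.76, 17.0, 4.81 and 44.7 CPM in the dendritic cells, with *Ncr1* at 0 in 3 libraries. Of its 2 genes compared, *Klre1* was at least 2-fold higher in dendritic cells in each library. *Klre1* led the list in control_4d, RA_4d and control_7d at 5.58, 9.43 and 3.44 CPM, and *Gzma* led it in RA_7d at 24.3 CPM. The NK receptor *Klrk1* was at 121, 119, 118 and 150 CPM. The serotonin receptor *Htr7* lay at 162, 254, 193 and 279 CPM and the lectin *Klrb1b* at 202, 202, 138 and 140 CPM. *Ifitm1*, *Klrd1*, *Klrk1*, *Htr7* and *Klrb1b* were each higher in dendritic cells in every library. *P2ry10*, *Sept6* and *Gcnt2* completed the 10 genes furthest apart with *Flt3* and *Cd209a*.

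On the lower side, the genes furthest apart were *C1qa*, *C1qc* and *C1qb*, the lipid carrier *Apoe*, the chemokines *Ccl8* and *Pf4*, *Ms4a7*, the complement receptors *C5ar1* and *C3ar1*, and the lipid receptor *Trem2*. All 17 genes of the macrophage list other than *C1qa* were at least 2-fold lower in each library, with a median of -3.48 for the smallest log2 ratio. The median of all genes was 0.00, but genes without the same direction in all 4 libraries were counted there as 0. The 2 medians are therefore not set against each other.

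**Figure D3:**
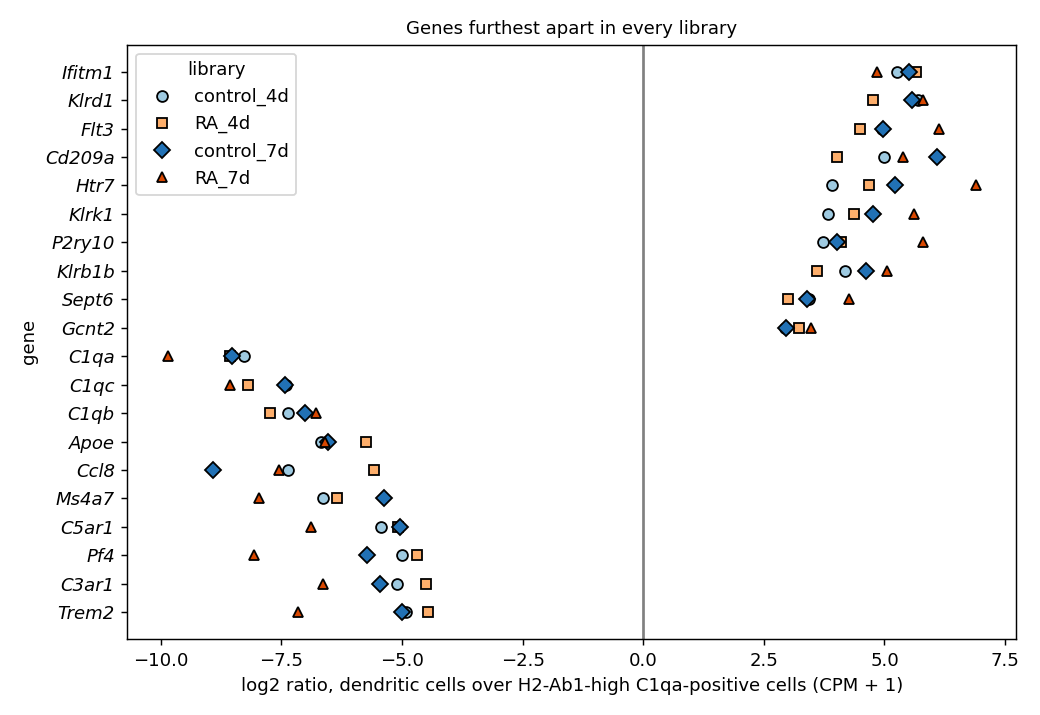
The log2 ratio of dendritic over C1qa-positive cells (x axis, CPM plus 1) for the 10 genes furthest apart in each direction (y axis), with 1 symbol per library. *Ifitm1* and *Klrd1* lie at or above 4.77 in every library and *C1qa*, which was selected on, at or below -8.28.

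Both groups were selected for *H2-Ab1*, so their MHC class II level was conditioned on. Within that, *H2-Eb1* was at 7928 CPM in dendritic cells of control_4d, 7164 in RA_4d, 5809 in control_7d and 6478 in RA_7d, against 3354, 3063, 3871 and 3714 CPM in C1qa-positive cells. *Cd74*, the class II chaperone, was at 13590, 12403, 10165 and 11233 CPM against 7086, 6627, 8021 and 7521. Both were higher in dendritic cells in every library. Of 18 genes of the MHC class II pathway, *H2-DMb2*, *H2-Oa* and *H2-Ob*, which edit peptide loading, were at least 2-fold higher in dendritic cells in each library and the lysosomal proteases *Ctss*, *Ctsl* and *Lgmn* at least 2-fold lower. Of 11 costimulatory and checkpoint genes compared, 3 were higher and 0 lower, and of 14 MHC class I genes 2 were higher and 1 lower. Chemokine ligands were lower for 11 of 16 and higher for 0, and Fc and complement receptors lower for 7 of 11. Of 21 pattern recognition receptors 8 were lower and 4 higher, namely *Tlr3*, *Nod2*, *Clec9a* and *Cd209a*, the last of which the selection used. Among 11 cytokines, *Il1b* and *Il6* were higher and *Il1rn*, *Il10*, *Il27* and *Il15* lower. *Il1b*, the precursor of interleukin 1β, was at 973, 1132, 939 and 981 CPM in control_4d, RA_4d, control_7d and RA_7d, with a UMI in 88.9% of the dendritic cells, and its level changed little between libraries.

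RNA of other cells differed between the libraries and is given before the conditions are compared. Neutrophil genes summed to 12.6 CPM in the dendritic cells of control_4d, 916 in RA_4d, 25.4 in control_7d and 11.8 in RA_7d, led in RA_4d by *S100a8* at 425 CPM. In RA_4d, *S100a8* had a UMI in 51.9% of dendritic cells, 56.5% of C1qa-positive cells and 58.8% of collagen-rich cells, and 90.9% of its dendritic UMIs sat in 1 cell, without which it was at 38.8 CPM, where collagen-rich cells were at 42.9 CPM in RA_4d and 2.48 in control_4d. All 283 *Cstdc5* UMIs of RA_4d also sat in 1 cell. Erythroid cell genes summed to 629, 9.05, 268 and 993 CPM in control_4d, RA_4d, control_7d and RA_7d, and *Hbb-bs* of hemoglobin, at 321 against 3.77 CPM at 4 dpf, was at 349 against 3.36 CPM in collagen-rich cells. The mesenchymal cell list summed to 1125, 1706, 7244 and 7368 CPM, led by *Col1a1* and *Col3a1*. The mast cell list was at 0 in 3 libraries and at 0.657 CPM in RA_7d. T cell genes summed to between 4.60 and 22.7 CPM, endothelial cell genes to between 45.3 and 130 CPM and osteoclast genes to between 54.7 and 197 CPM. In the B cell list *Ebf1*, at 46.4 to 247 CPM, was the only gene above 2.26 CPM. Scrublet called 5 of 236, 2 of 154, 7 of 107 and 9 of 90 dendritic cells as doublets (2.12%, 1.30%, 6.54% and 10.0%). No barcode was shared between libraries among the dendritic cells, against 66 repeats among all kept cells. The part of this RNA in the results below was not tested beyond the values given.

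Between RA and control, few genes of the dendritic cells differed by 2-fold. At 4 dpf, 139 of 8105 genes (1.71%) were at least 2-fold higher in RA and 58 (0.716%) at least 2-fold lower. At 7 dpf, 62 of 6428 genes (0.965%) were higher and 228 (3.55%) lower. The median log2 ratio over all genes was -0.01 at 4 dpf and -0.10 at 7 dpf. With TMM scaling, which sets libraries by the bulk of their genes, the 7 dpf median was 0.03 and the split 95 higher and 165 lower, so 36.5% of the calls were higher in place of 21.4%. The balance of higher and lower genes was not the same in each set of cells. In Cd209a-positive cells alone it turned round at both times, with 45 genes higher and 87 lower at 4 dpf and 128 higher and 84 lower at 7 dpf. In that subset the macrophage list, with *C1qa*, summed to 1487 CPM in control_4d, 2661 in RA_4d, 1242 in control_7d and 4705 in RA_7d. Called doublets were 2 of 136, 0 of 71, 1 of 50 and 4 of 27 in the same order. Their part in the turn was not tested. Xcr1/Clec9a-positive cells gave 116 higher and 33 lower at 4 dpf, and 45 higher and 74 lower at 7 dpf. Without the called doublets the 7 dpf split was 40 higher and 342 lower, and with a looser cell filter (at least 1000 UMIs and 500 genes, at most 15% mitochondrial) 141 and 183. With each library weighted to the same mix of subsets, 36 of the 62 higher and 132 of the 228 lower genes at 7 dpf still passed 2-fold in the same direction, and 107 of 139 and 44 of 58 at 4 dpf. That mix gave a weight of 18.7% to cells with neither marker and 2.39% to cells with both. In RA_7d these were 7 cells, 1 of them a called doublet, and 2 cells. All values with the mix held fixed therefore rest in part on few cells in RA_7d.

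*Ifitm1* set RA_7d apart from the other libraries. Its levels, given above, were close to each other in control_4d, RA_4d and control_7d, and RA_7d stood far below all 3, with a log2 ratio of RA over control of -0.16 (-0.21 to -0.11) at 4 dpf and -2.74 (-2.89 to -2.60) at 7 dpf. An *Ifitm1* UMI was found in 200 of 236 cells in control_4d (84.7%), 125 of 154 in RA_4d (81.2%), 72 of 107 in control_7d (67.3%) and 29 of 90 in RA_7d (32.2%, 22.8 to 42.9). Thinned to 4000 UMIs per cell, the shares were 79.2%, 74.7%, 60.7% and 22.2%. In C1qa-positive cells it was also lowest in RA_7d, at 61.0, 41.4, 43.1 and 9.42 CPM. In collagen-rich cells 9.95% had a UMI and the level was 15.7, 15.1, 11.1 and 13.2 CPM. Cd209a-positive cells were at 2715, 3183, 3240 and 728 CPM and Xcr1/Clec9a-positive cells at 1116, 892, 885 and 120 CPM. RA_7d was lowest in both subsets, with log2 ratios to control_7d of -2.15 and -2.87, and the value with the mix held fixed was -2.31. In RA_7d, 19.3% of the *Ifitm1* UMIs came from 1 cell, against 5.41% in control_7d. The ratio at 7 dpf was -2.60 without the called doublets and -2.97 with the top cell of each library left out.

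*Klrd1*, *AA467197*, *Rgs1*, *Timp1*, *Myof*, *Nrp2*, *Ccnd2* and *Ftl1-ps1*, a pseudogene that may share reads with *Ftl1*, were the genes lower in RA at both times by the rule used to name genes. *Klrd1*, given above, had log2 ratios of -0.81 (-0.94 to -0.69) and -1.27 (-1.53 to -1.02), or -0.48 and -1.02 with the mix held fixed. In Cd209a-positive cells alone *Klrd1* was at 605 CPM in control_4d, 479 in RA_4d, 552 in control_7d and 257 in RA_7d, and in Xcr1/Clec9a-positive cells at 96.7, 52.0, 77.8 and 65.7 CPM. *AA467197*, a gene of the mitochondrial NDUFA4 family known to respond to inflammatory stimuli, was at 135, 49.8, 80.4 and 1.31 CPM, that is, in 87, 34, 23 and 2 cells. Only 2 UMIs of it were found in RA_7d, a log2 ratio of -5.14 (-9.00 to -4.05), and at 4 dpf it was -1.43 (-1.73 to -1.16). Within subsets the 4 dpf ratio of *AA467197* was smaller, -0.46 in Cd209a-positive and -0.36 in Xcr1/Clec9a-positive cells, and 35.0% of its control_7d UMIs came from 1 cell. With the mix held fixed its ratios were -1.14 at 4 dpf and -4.88 at 7 dpf. In C1qa-positive cells *AA467197* was at 67.7, 28.1, 27.0 and 25.5 CPM. *Rgs1*, which dampens signalling of chemokine receptors, was at 212, 94.3, 129 and 40.1 CPM, with log2 ratios of -1.16 (-1.38 to -0.96) and -1.66 (-2.13 to -1.27). For *Klrd1* and *AA467197* as for *Rgs1*, each RA library lay below the control of its time, and RA_7d was the lowest of the 4.

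The protease inhibitor *Timp1* was at 94.9 CPM in control_4d, 51.3 in RA_4d, 115 in control_7d and 29.6 in RA_7d. *Nrp2*, a coreceptor of semaphorins and VEGF, was at 63.8, 32.4, 88.0 and 28.9 CPM, the membrane repair gene *Myof* at 52.0, 25.7, 86.6 and 33.5 CPM, and the cyclin *Ccnd2* at 118, 60.4, 68.1 and 33.5 CPM. All 4 genes were lower in RA at each time. Each was at a higher level in collagen-rich cells than in dendritic cells of the same library. There *Timp1* was at 591, 497, 610 and 347 CPM in the same order, and so also lower in RA at both times. *Nrp2* was at 71.5, 98.4, 105 and 79.6 CPM, *Myof* at 174, 156, 166 and 161, and *Ccnd2* at 138, 147, 148 and 173. The part of such RNA in the differences was not tested. With the mix held fixed the 7 dpf log2 ratio went from -1.57 to -0.76 for *Nrp2*, from -1.34 to -0.72 for *Myof*, and was -0.87 for *Ccnd2* and -1.80 for *Timp1*. In Cd209a-positive cells alone at 7 dpf *Nrp2* and *Myof* had log2 ratios of 0.41 and 0.05, and in Xcr1/Clec9a-positive cells *Nrp2* was at 1.06 at 4 dpf and *Myof* at 0.33 at 7 dpf.

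Genes higher in RA at both times were *C3*, *Serping1*, *Cep85l*, *Tbc1d8*, *Rab7b*, *Slc25a20*, *Prkar2a* and *P2ry14*. *Cep85l*, a centrosomal protein, was at 20.6 CPM in control_4d, 66.0 in RA_4d, 35.8 in control_7d and 74.3 in RA_7d, and was found in 48, 59, 28 and 44 cells. Its log2 ratios were 1.64 and 1.03, or 1.29 and 0.66 with the mix held fixed. *Tbc1d8*, a regulator of Rab GTPases, was at 61.7, 123, 85.3 and 174 CPM, and *Slc25a20*, which carries acylcarnitines into mitochondria, at 113, 207, 170 and 310 CPM. *Rab7b* was at 86.4, 175, 134 and 255 CPM, *Prkar2a*, a subunit of protein kinase A, at 87.0, 165, 134 and 244 CPM, and the UDP-glucose receptor *P2ry14* at 44.7, 98.5, 58.4 and 99.2 CPM. *Tbc1d8* and *Slc25a20* were higher in Xcr1/Clec9a-positive than in Cd209a-positive cells in every library. With the mix held fixed, the log2 ratios at 4 and 7 dpf shrank for *Tbc1d8* from 0.98 and 1.02 to 0.50 and 0.46, for *Slc25a20* from 0.87 and 0.87 to 0.36 and 0.29, for *Rab7b* from 1.01 and 0.92 to 0.39 and 0.63, for *Prkar2a* from 0.92 and 0.86 to 0.51 and 0.28, and for *P2ry14* from 1.12 and 0.75 to 0.62 and -0.04. In Cd209a-positive cells alone the direction turned at 7 dpf for *Slc25a20* (-0.68), *Prkar2a* (-0.11) and *P2ry14* (-4.37), and at 4 dpf for *Rab7b* (-0.26). Too few *P2ry14* UMIs in these cells of RA_7d left the size of its ratio to the pseudocount, so that size is not read.

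The complement gene *C3* was at 4.11 CPM in control_4d, 160 in RA_4d, 14.4 in control_7d and 104 in RA_7d, but 1 cell held 51.4% of its UMIs in RA_4d and 86.8% in RA_7d, without which *C3* was at 78.8 and 14.2 CPM. With cells of 0 *C1qa* UMIs alone, its log2 ratio at 7 dpf was -0.17. *Serping1*, the C1 inhibitor, was at 20.9, 77.0, 53.6 and 118 CPM in 10, 14, 10 and 18 cells. Its log2 ratio turned to -0.16 at 7 dpf without the called doublets, to -0.14 with cells of 0 *C1qa* UMIs alone, and to -1.16 at 4 dpf in Cd209a-positive cells. Both are abundant in collagen-rich cells, *C3* at 661, 698, 163 and 812 CPM and *Serping1* at 1016, 932, 399 and 934 CPM.

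**Figure D4:**
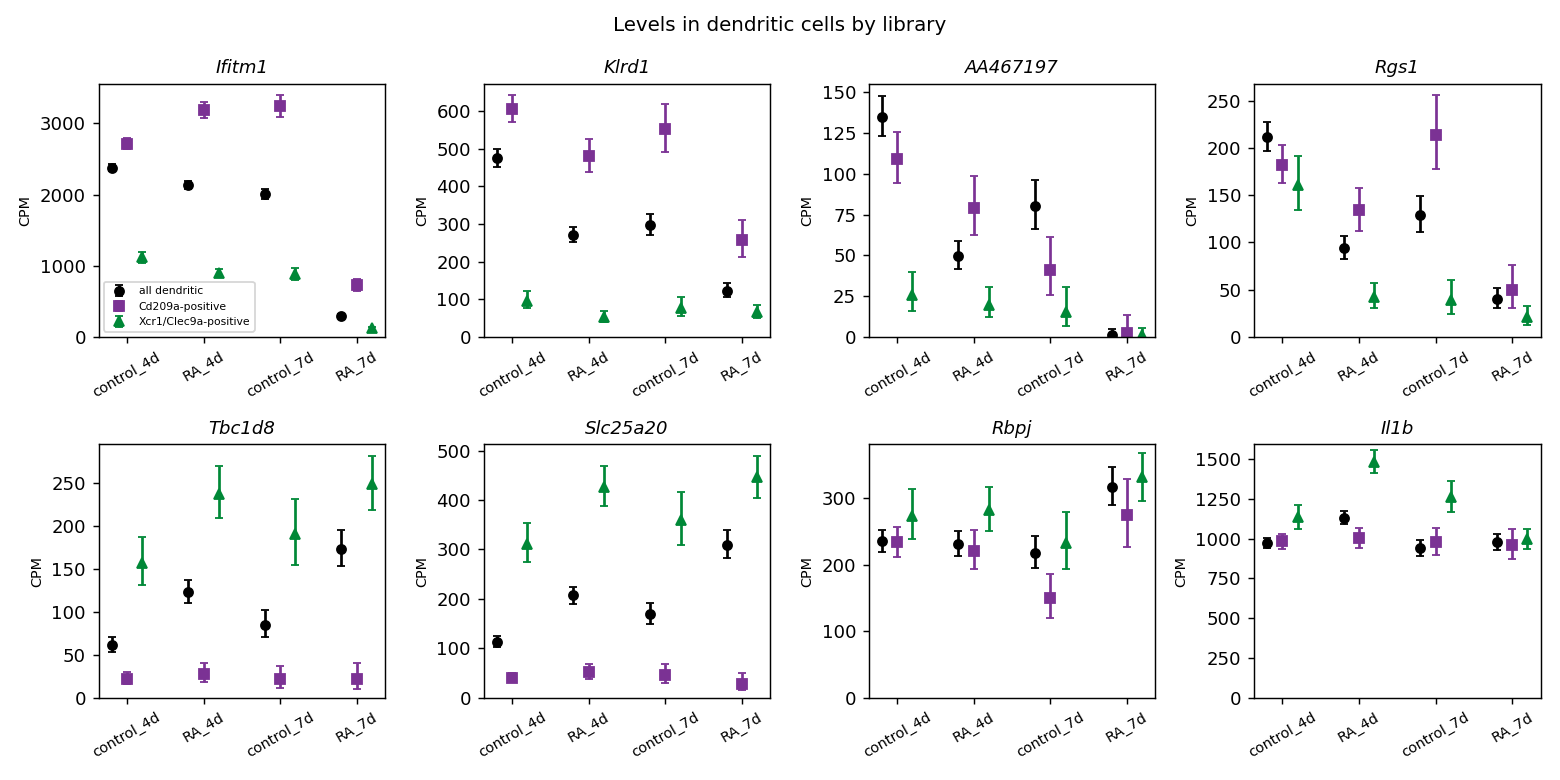
Levels in CPM (y axis, 95% Poisson intervals) of 8 genes in each library (x axis), for all dendritic cells (black), Cd209a-positive cells (purple) and Xcr1/Clec9a-positive cells (green). *Ifitm1* in RA_7d lies below the other 3 libraries in both subsets, *Tbc1d8* and *Slc25a20* are higher in Xcr1/Clec9a-positive cells in every library, and *Il1b* stays between 939 and 1132 CPM in all dendritic cells.

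Among the genes named for a difference at 1 time were genes of blood cells and cartilage. At 4 dpf the calprotectin genes *S100a9* (2.94 CPM in control_4d, 345 in RA_4d) and *S100a8*, *Retnlg* and *Cstdc5* were higher in RA, and *Hbb-bs*, *Hba-a1*, *Hba-a2* and the matrix protein *Spp1* (360 and 68.7 CPM) lower. Reads of the near-identical *Hba-a1* and *Hba-a2* may be split between them. At 7 dpf the cartilage collagen *Col2a1* was at 813 CPM in control_7d and 33.5 in RA_7d, with 95.8% of the control UMIs in 1 cell and 35.4 CPM without it. *Cilp* of the cartilage layer was at 68.1 and 185 CPM, with 78.4% of its RA_7d UMIs in 1 cell. The macrophage elastase *Mmp12* was at 274 and 29.6 CPM, a log2 ratio of -3.17 that was -1.43 with the mix held fixed. In Cd209a-positive cells the ratio was 4.49, but too few *Mmp12* UMIs in control_7d left its size to the pseudocount. No turn of direction is read from it. The 3 hemoglobin genes were named as higher in RA at 7 dpf, with *Hbb-bs* at 152 CPM in control_7d and 511 in RA_7d, where 1 cell held 62.6% of its UMIs and the level without it was 192 CPM. In collagen-rich cells *Hbb-bs* was lower in RA at 4 dpf (values above) and at 307 and 244 CPM at 7 dpf. For *Col2a1* and *Cilp* 1 cell set the sign or the size, and for *S100a8* most of the size.

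No antigen presentation gene that was compared passed 2-fold between RA and control. Of 15 MHC class II genes compared, 0 were past 2-fold in either direction at 4 dpf (median log2 -0.19) and 0 at 7 dpf (0.03). MHC class I genes gave 0 of 14 (median -0.13) and 0 of 13 (0.12), and costimulatory genes 0 of 11 (-0.04) and 0 of 7 (-0.21). Fc and complement receptors gave 0 of 10 (-0.19) and 0 of 8 (-0.33). Among pattern recognition receptors, 0 of 14 moved at 4 dpf (-0.21). At 7 dpf *Tlr3*, the sensor of double-stranded RNA found in type 1 cells, was higher and *Clec4n* lower among 11 (-0.50). Neither passed 2-fold with the mix held fixed, where the log2 ratio of *Tlr3* went from 1.01 to 0.44 and that of *Clec4n* from -1.90 to -0.95. With 0.716% to 3.55% of all genes past 2-fold in a given direction, counts of 0 or 1 in lists of this size are near the background.

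Among interferon response genes, *Isg15* and *Irf7* were lower in RA_7d. The 16 genes of the list summed to 3165 CPM in control_4d, 2555 in RA_4d, 2602 in control_7d and 1422 in RA_7d, led by *Ifitm3* at 1969, 1503, 1495 and 780 CPM. Of 14 compared at 4 dpf, *Oasl1* was at least 2-fold higher (log2 1.03, or 0.65 with the mix held fixed) and *Ifit3* and *Cxcl10* lower (median -0.36). Of 7 compared at 7 dpf, *Isg15* and *Irf7* were lower, 0 higher, and the median was -0.81. *Isg15*, a ubiquitin-like protein, was at 112, 111, 173 and 54.5 CPM, a log2 ratio of -1.65 (-2.04 to -1.30) at 7 dpf. *Irf7*, which drives interferon genes, was at 79.9, 62.6, 77.0 and 28.9 CPM, a ratio of -1.38 (-1.95 to -0.90). With the mix held fixed the ratios were -1.33 for *Isg15* and -1.48 for *Irf7*, and that of *Ifitm3* went from -0.94 to -0.49. In Xcr1/Clec9a-positive cells the 7 dpf ratio was -2.48 for *Isg15*, -2.02 for *Irf7* and -1.31 for *Ifitm3*, and in Cd209a-positive cells -0.33, -0.36 and -0.23. The difference between the subsets was not tested. In C1qa-positive cells *Isg15* was at 132 CPM in control_7d and 61.5 in RA_7d, and *Irf7* at 116 and 56.4.

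**Figure D5:**
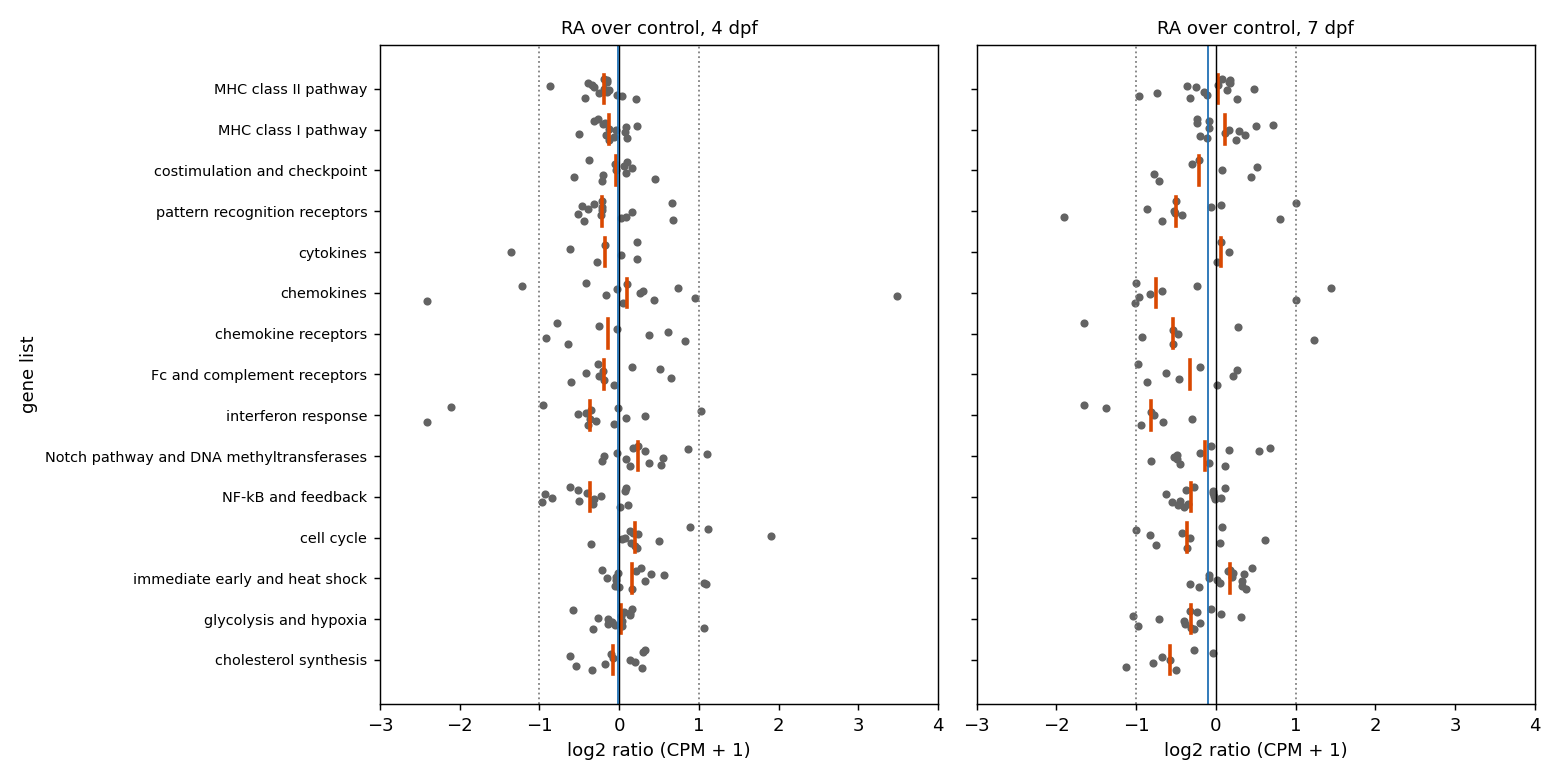
The log2 ratio of RA over control (x axis, CPM plus 1) at 4 dpf (left) and 7 dpf (right) for each gene compared in 15 lists (y axis), with 1 point per gene, the list median in orange, the median of all genes in blue and dotted lines at 2-fold. Nearly all points lie inside 2-fold, and the lowest list median is that of the interferon response at 7 dpf (-0.81).

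Of 14 NF-kB genes and feedback inhibitors 0 passed 2-fold at either time, with medians of -0.37 and -0.31. With the mix held fixed, the log2 ratios at 4 and 7 dpf were -0.35 and -0.15 for *Rel*, -0.77 and -0.34 for *Nfkbia*, -0.36 and 0.15 for *Nfkb1* and -0.62 and 0.15 for *Tnip3*. The direction thus turned at 7 dpf for *Nfkb1* (from -0.28) and *Tnip3* (from -0.55) and held for the other values. *Nfkbia*, the inhibitor that NF-kB itself induces, was at 499 CPM in control_4d, 261 in RA_4d, 348 in control_7d and 226 in RA_7d, log2 ratios of -0.93 (-1.06 to -0.81) and -0.62 (-0.82 to -0.42). In Cd209a-positive cells *Nfkbia* was at 658, 318, 534 and 419 CPM, and in Xcr1/Clec9a-positive cells at 187, 149, 193 and 140. The ratios at 4 dpf were -1.05 in Cd209a-positive and -0.32 in Xcr1/Clec9a-positive cells, a difference that was not tested.

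Cytokine genes gave *Il10* as the exception of 7 compared at 4 dpf (lower, median -0.18) and none of 3 at 7 dpf (0.06). Among 13 chemokines at 4 dpf, *Ccl17* was higher and *Ccl4* and *Cxcl10* lower (median 0.10). *Ccl17* rested on 53 UMIs in 2 cells of RA_4d. *Ccl4*, which attracts monocytes and T cells, was at 216 CPM in control_4d, 92.4 in RA_4d, 77.0 in control_7d and 65.1 in RA_7d. Among 8 chemokines at 7 dpf, *Ccl5* and *Cxcl2* were higher and *Cxcl16* lower (-0.76), and 91.2% of the *Ccl5* UMIs of RA_7d came from 1 cell. Chemokine receptors gave 0 of 8 at 4 dpf (-0.14). At 7 dpf *Xcr1*, which entered the subset call, was higher and *Ccr1* lower of 7 (-0.54), and *Ccr1* was at 77.0, 44.5, 45.4 and 13.8 CPM. With the mix held fixed, the 7 dpf log2 ratio was 0.40 for *Xcr1* in place of 1.23 and -0.93 for *Ccr1* in place of -1.65, both within 2-fold. That of *Cxcl16* went from -1.01 to -0.93.

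The study's question turned on Notch signalling and DNA methylation in progenitor cells, and these genes were looked up here as well. Of 13 genes of the Notch pathway and DNA methyltransferases compared at 4 dpf, *Hes1* was higher in RA (median 0.24), and 0 of 12 passed 2-fold at 7 dpf (-0.14). *Rbpj*, the transcription factor of the pathway, was at 235 CPM in control_4d, 231 in RA_4d, 218 in control_7d and 317 in RA_7d, and had a UMI in 87.1% of dendritic cells. Its log2 ratio was -0.03 (-0.18 to 0.13) at 4 dpf and 0.54 (0.33 to 0.75) at 7 dpf, or 0.58 with the mix held fixed. *Notch2*, a receptor that type 2 cells are known to need in spleen, was at 116, 132, 102 and 165 CPM. Its ratios were 0.18 and 0.68, or 0.27 and 0.93 with the mix held fixed. The methyltransferase *Dnmt3b* was near its floor, at 3.82, 3.02, 2.06 and 3.29 CPM. For *Rbpj* and *Notch2*, RA_7d was the highest library in all dendritic cells together, by less than 2-fold over control_7d. In Cd209a-positive cells the 7 dpf ratios were 0.86 for *Rbpj* and 1.33 for *Notch2*, the latter past 2-fold, with 27 such cells in RA_7d. In Xcr1/Clec9a-positive cells they were 0.50 and 0.42. RA_7d was also the highest library in C1qa-positive cells. There *Rbpj* was at 323 CPM in control_4d, 278 in RA_4d, 253 in control_7d and 383 in RA_7d. *Notch2* was at 154, 167, 156 and 228 CPM in the same order.

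Among 13 cell cycle genes at 4 dpf *Top2a* and *Cenpf* were higher in RA (median 0.20), and among 9 at 7 dpf *Top2a* was lower (-0.36). The topoisomerase *Top2a* was at 49.1 CPM in control_4d, 107 in RA_4d, 102 in control_7d and 50.6 in RA_7d. Its log2 ratio at 4 dpf went from 1.11 to 0.86 with the mix held fixed, below 2-fold, and that at 7 dpf became -1.66. Immediate early and heat shock genes gave *Hspa1a* and *Hspa1b* higher of 15 at 4 dpf (0.16) and 0 of 15 at 7 dpf (0.18). Glycolysis and hypoxia genes gave *Vegfa* higher of 15 (0.02) and *Pfkl* lower of 13 (-0.31), and cholesterol synthesis genes gave 0 of 11 at 4 dpf (-0.08).

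Between 4 and 7 dpf, 426 of 7698 genes (5.53%) were at least 2-fold higher and 91 (1.18%) lower in controls. In RA, 279 of 7182 genes (3.88%) were higher and 238 (3.31%) lower. Without the called doublets the balance in RA turned to 66 higher and 350 lower, while controls had 259 and 97. TMM scaling gave 374 and 142 in controls, with the median over all genes at -0.08 in place of 0.04. These comparisons share libraries with those of RA and control. Of the mesenchymal cell list, 7 of 7 genes were at least 2-fold higher in controls and 6 of 7 in RA, and the list's sums above moved with them. Of the 279 higher genes in RA, 78 were still at least 2-fold higher without the called doublets, and 361 of 426 in controls. Both counts exceed the totals without doublets above (66 and 259), so they do not cover the same set of genes. The share of calls kept is therefore not read from them. *Col2a1* went from 0 to 1183 UMIs in controls, of which 1 cell held 95.8%, and from 0 to 51 UMIs in RA. *Retnla*, an alternative activation gene of macrophages, went from 0 to 165 CPM in controls and to 112 CPM in RA, in 2 cells and in 1 cell. In C1qa-positive cells *Retnla* was at 213 CPM in control_7d and 187 in RA_7d, and in collagen-rich cells at no more than 0.261 CPM in any library.

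Named as lower at 7 dpf in both conditions were *Tagln*, *Acta2*, *Cfp*, *Il21r* and *Cd7*. The contractile genes *Tagln* and *Acta2*, which are higher in collagen-rich cells, had ratios of 7 over 4 dpf of -2.53 and -1.91 in controls and -2.41 and -1.32 in RA, and the last, of *Acta2*, was -0.40 with the mix held fixed. *Cfp*, the complement factor properdin, was at 314 CPM in control_4d, 203 in RA_4d, 140 in control_7d and 74.9 in RA_7d, log2 ratios of 7 over 4 dpf of -1.16 in controls and -1.42 in RA, or -0.91 and -1.01 with the mix held fixed. It was found in 201, 126, 73 and 47 cells, 85.2%, 81.8%, 68.2% and 52.2% of them. The interleukin 21 receptor *Il21r* was at 82.6, 64.9, 38.5 and 17.1 CPM (-1.08 and -1.86, or -0.85 and -1.47 with the mix held fixed), and *Cd7*, which is higher in Cd209a-positive cells, at 103, 64.5, 47.4 and 28.9 CPM (-1.10 and -1.13, or -0.73 and -0.95 with the mix held fixed). *Cfp*, *Il21r* and *Cd7* were lowest in RA_7d and highest in control_4d. MHC class II genes had *H2-DMb2* lower of 15 in controls (median -0.43) and 0 of 15 in RA (-0.15). Type 2 list genes were lower for 5 of 11 in RA (*Sirpa*, *Clec10a*, *Itgam*, *Ltb* and *Cd7*) and higher for *Mgl2*, and lower for 2 of 11 in controls (*Ltb* and *Cd7*). The ratios in RA were within 2-fold with the mix held fixed for *Sirpa* (-0.81), *Clec10a* (-0.92) and *Itgam* (-0.43). Type 1 genes were higher for *Cadm1* of 14 in controls and for *Cadm1* and *Xcr1*, which entered the subset call, of 14 in RA. *Cadm1* was higher at 7 than at 4 dpf within both subsets. In Xcr1/Clec9a-positive cells it was at 86.4 CPM in control_4d, 196 in RA_4d, 311 in control_7d and 331 in RA_7d, and in Cd209a-positive cells its log2 ratios of 7 over 4 dpf were 2.23 in controls and 1.46 in RA.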

How the data were processed

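Cells of mouse fracture callus were profiled with 10x Chromium Single Cell 3′ chemistry, 1 library for each of 4 conditions. The authors deposited a filtered matrix of UMI counts per library, made with Cell Ranger 7.0.1 on mm10; the counts are raw and hold 34038 barcodes and 32285 genes. Kept cells numbered 5470 in control_4d, 4110 in RA_4d, 7676 in control_7d and 8223 in RA_7d. The dendritic cells of these libraries held 3403426, 2650886, 1454393 and 1521614 UMIs. Cells were selected as stated, and UMIs were summed per library and cell group and given as counts per 1000000 UMIs (CPM) with exact Poisson intervals. Shares have exact Clopper-Pearson intervals and ratios exact conditional ones, at 95%. Log2 ratios used a pseudocount of 1 CPM, over genes with at least 50 UMIs in the libraries compared, and intervals were made without it. Ratios of named genes within a subset were also given where that subset held fewer UMIs, so their size can rest on the pseudocount. With 1 library per condition no test was run. Groups came from the sample labels. Genes were named by size: furthest apart in every library, past the limits at both times, or furthest apart at 1 time, with a minimum level of 50 or 100 CPM. Collagen-rich cells (at least 20 collagen UMIs, at most 1 of *H2-Ab1*, 9043 cells) served as background. Doublets were called with Scrublet (scanpy 1.11.5) and kept unless stated. The code was checked on simulated counts. Gene positions follow GENCODE M21. The members and the 31 gene lists were chosen with earlier results of these data known. Python 3.11.15, numpy 2.4.6, scipy 1.17.1 and pandas 2.3.3 were used. Alternatives varied the cell filter, selection limits, denominator, scaling, pseudocount, count minimum, doublets and subset. Some items are not reported here.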

Additional observations from a re-analysis of the deposited data

Results flagged for a closer look

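Some genes had RA over control ratios of opposite sign at 4 and 7 dpf in the dendritic cells, and with 1 library per condition the difference was not tested. The log2 ratio of *S100a9* was 6.46 at 4 dpf and -1.45 (-3.84 to -0.07) at 7 dpf. The value at 7 dpf rested on 13 UMIs in control_7d and 4 in RA_7d, near the floor. The ratio was -6.08 and 1.74 for *Hbb-bs*, -5.21 and 1.71 for *Hba-a2*, and -5.12 and 2.04 for *Hba-a1*. As given above, 1 cell held most *Hbb-bs* UMIs of RA_7d. These genes belong to neutrophils and erythroid cells. The ratio of *Top2a* was 1.11 at 4 dpf and -1.003 at 7 dpf; its level was 54.6 CPM in control_4d and 76.5 CPM in RA_4d in C1qa-positive cells, and 12.8 and 9.91 CPM at 7 dpf.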

How the results depend on the processing

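Values in Xcr1/Clec9a-positive cells alone, with the subset mix held fixed, without the top cell of a gene and per all kept cells for the subsets were alternatives chosen after seeing the data. No paired analysis was possible because each condition has 1 library. Of 140 alternative values of the shares, subset shares and counts of genes, 113 stayed within the spread or within 1.5 times, 26 moved beyond it and 1 reversed. As a share of *H2-Ab1*-high cells, dendritic cells in RA over control were 1.22 at 4 dpf and 1.12 at 7 dpf; of *Ptprc*-positive cells, 1.21 at 7 dpf. The 7 over 4 dpf ratio was 0.505 and 0.416 in controls and 0.699 and 0.383 in RA, by *Ptprc* and *H2-Ab1*. The Xcr1/Clec9a-positive share of all kept cells, 7 over 4 dpf, was 0.470 in controls and 0.574 in RA, against 1.45 and 1.97 of dendritic cells.

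Genes past 2-fold in RA at 4 dpf were 197, and 87 with a pseudocount of 10 CPM, 741 at 10 UMIs and 45 at 200 UMIs. At 7 dpf they were 290, and 144, 1118 and 44 in the same order, and 119 in Xcr1/Clec9a-positive cells. For 7 over 4 dpf, controls had 517, and 326, 1619 and 96, with 334 in Cd209a-positive and 150 in Xcr1/Clec9a-positive cells; RA had 517, and 315, 1462 and 148, with 222 in Xcr1/Clec9a-positive cells. With 10 CPM, dendritic against C1qa-positive cells gave 561 in place of 1066, and the subsets 671 in place of 1122. Fewer cells and a lower or higher minimum change the number of genes compared.

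Signs of RA over control values of at least 2-fold reversed as follows, in log2; the cause was not tested. In Cd209a-positive cells *Rab7b* was -0.26 and *Serping1* -1.16 at 4 dpf, and *Nrp2* 0.41, *Mmp12* 4.49 and *Myof* 0.05 at 7 dpf. In Xcr1/Clec9a-positive cells *Hspa1a* was -0.40 at 4 dpf, and *Col11a1* 0.35, *Clec4n* 1.60, *Cilp* -1.56, *Ccl5* -1.56, *Col2a1* 0.10 and *Myof* 0.33 at 7 dpf. In these cells *Clec4n* was at 0 CPM in control_7d and 2.02 in RA_7d, and *Ccl5* at 0 in RA_7d. Their ratios, like that of *Mmp12* in Cd209a-positive cells, rest on few UMIs and the pseudocount, and no reversal is read from them. Without doublets *Serping1* was -0.16 and *Cilp* -1.53 at 7 dpf; with 0 *C1qa* UMIs *Serping1* was -0.14, *Cilp* -0.84 and *C3* -0.17. *Cd7* at 7 over 4 dpf in Xcr1/Clec9a-positive cells was 1.58 in controls and 0.76 in RA. At 90 dendritic cells in RA_7d, values for subsets there rest on 27 and 54 cells. Values with the subset mix held fixed also rest there on 7 cells with neither marker and 2 with both.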
